A study of Mus musculus with 54 samples.

Results

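The PYHIN family of interferon-inducible genes was followed through microglia of mice that had been given LPS in the first, the second, both or neither of a pair of injections, and of Ercc1-deficient mice and their control littermates. The members were taken by symbol from the count tables: Ifi204, Ifi205, Ifi206, Ifi207, Ifi209, Ifi211, Ifi213 and Aim2. All 8 were among the 55536 genes of each table and all 8 passed the filter on low counts in both experiments. Of 9 further PYHIN symbols looked up, 5 were found as separate genes (Ifi202b, Ifi203, Ifi208, Ifi214 and Mndal), and the other symbols were older names of genes already counted.

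Many PYHIN proteins, though not all, join a pyrin domain, which binds other pyrin domains, to a HIN domain, which binds double-stranded DNA. Aim2 is the DNA receptor that recruits the adaptor Pycard (ASC) and caspase-1 into an inflammasome, the complex that matures IL-1β and IL-18. The Ifi200 genes lie beside Aim2 in the mouse genome and are known as targets of type I interferon; the product of Ifi204, p204, is related to human IFI16, a nuclear and cytosolic DNA sensor. Microglia, the resident macrophages of the brain, react to peripheral LPS, a bacterial cell wall component that signals through the receptor TLR4.

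In the recurrent LPS model, male C57BL/6J mice, obtained at 7 to 9 weeks of age and acclimatised for at least 2 weeks, received 2 intraperitoneal injections 4 weeks apart. Mice of the LL group received LPS both times, PL mice PBS and then LPS, LP mice LPS and then PBS, and PP mice PBS both times, with LPS at 1 mg/kg. In the Ercc1 model, mice of a mixed FVB/C57BL/6J background received 1 injection of LPS (1 mg/kg) or PBS at 11 to 12 weeks of age: KO-LPS and KO-PBS mice carried Ercc1 Δ/ko, and WT-LPS and WT-PBS mice were littermates that carried Ercc1 wt/Δ, wt/ko or wt/wt. Ercc1 is a subunit of a DNA repair endonuclease, and its deficiency gives a model of accelerated ageing. The alleles are not restricted to microglia, so effects within microglia and effects of the cells around them cannot be told apart in these libraries. Microglia came from brains collected 3 h later, by a sort for viable cells that were CD11b high, CD45 int and Ly6C-. Each group had 3 RNA libraries, each from an individual animal, so the p-values measure the spread between mice. ATAC and histone ChIP libraries were pools of 2 and 5 mice with 1 library per group and have no replicate check.

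The 13 PYHIN genes of the tables lie side by side on chromosome 1 of GRCm38. Aim2 (ENSMUSG00000037860) spans chr1:173350879-173466040, and the Ifi genes fill the next 563.3 kb, chr1:173468485-174031810, from Ifi206 to Ifi205. Ifi209 and Aim2 are on the + strand and the other 6 members on the - strand. Ifi211 lies within the gene body of Mndal on the same strand, and the exons of the pair do not overlap.

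Reads from the copies of this cluster cannot always be told apart, which limits every value of a single Ifi gene. The recurrent model was sequenced with reads of 50 bases and the Ercc1 model with reads of 75 bases, so the exons of each gene were cut into stretches of those lengths and looked up in the whole genome. Ifi211 shared most: 25.9% of its 50-base and 35.9% of its 75-base stretches occurred at a single place. For Ifi204 the shares were 59.3% and 71%, for Ifi206 61.7% and 73.3%, for Ifi209 64.3% and 75.2%, and for Ifi213 66.7% and 82.5%. Ifi205 (78.4% and 83.3%) and Ifi207 (87.6% and 96%) were more distinct, and Aim2 (95.3% and 100%) was nearly free of repeats. At least 96.8% of the repeated stretches of each Ifi member had another copy within the PYHIN cluster itself. Further copies elsewhere were not excluded, and how shared reads were counted is not given in the sources used here. The deposited counts hold fractions, 46.8% of the values above 0 in the recurrent model and 30.5% in the Ercc1 model, and Ifi211, Ifi205 and also Aim2 were fractional in 12 of 12 recurrent libraries, so a fraction does not mark sharing within the cluster.

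**Figure D1:**
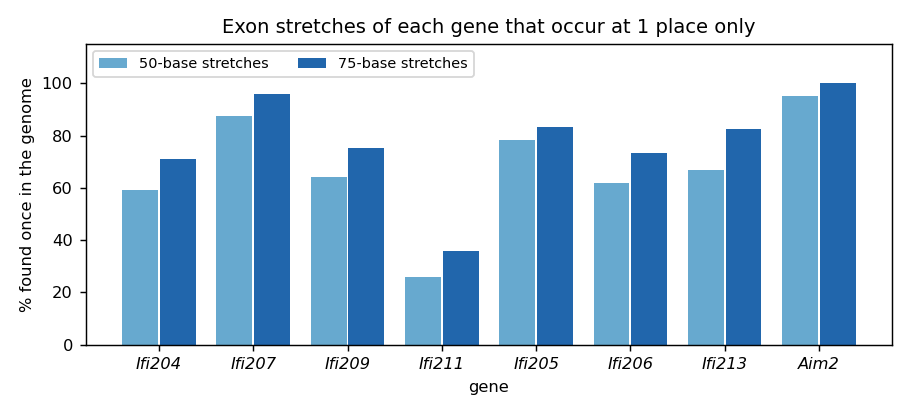
Percentage of 50-base (light) and 75-base (dark) exon stretches of each member that occurred once in the GRCm38 genome; bars start at 0 and each bar is 1 gene. Ifi211 stands lowest, at 25.9% and 35.9%, and Aim2 highest, at 95.3% and 100%.

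The sequence just before the start of each gene was read for the interferon-stimulated response element (ISRE), the DNA word bound by the interferon-activated factor ISGF3 and by interferon regulatory factors. The letters searched were GAAA, any 2 bases and GAAA again, on both strands of a window of 250 bases before to 50 after each annotated start (RefSeq, GRCm38.p6). They were found in 943 of 27025 such promoters (3.49%). Of the 7 members with a promoter entry, 5 held the word: Ifi205, Ifi206, Ifi207, Ifi211 and Ifi213. Ifi204 has no entry in that table. The 150 bases before each start are shown 5′ to 3′ on the strand of the gene, with the ISRE in capitals.

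Ifi206, chr1:173491319-173491468, - strand: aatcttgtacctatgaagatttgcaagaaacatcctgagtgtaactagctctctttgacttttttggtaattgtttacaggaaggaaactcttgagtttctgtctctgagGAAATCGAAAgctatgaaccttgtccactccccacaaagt
Ifi213, chr1:173599273-173599422, - strand: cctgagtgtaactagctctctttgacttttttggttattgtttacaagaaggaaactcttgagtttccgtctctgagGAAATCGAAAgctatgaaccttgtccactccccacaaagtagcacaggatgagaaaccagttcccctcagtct
Ifi207, chr1:173741810-173741959, - strand: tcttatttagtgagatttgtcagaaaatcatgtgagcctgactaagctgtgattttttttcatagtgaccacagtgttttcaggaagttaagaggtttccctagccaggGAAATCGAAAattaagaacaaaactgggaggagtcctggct
Ifi211, chr1:173913047-173913196, - strand: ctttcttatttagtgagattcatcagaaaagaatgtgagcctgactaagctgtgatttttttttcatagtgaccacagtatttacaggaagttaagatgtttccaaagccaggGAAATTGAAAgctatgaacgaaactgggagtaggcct
Ifi205, chr1:174031756-174031905, - strand: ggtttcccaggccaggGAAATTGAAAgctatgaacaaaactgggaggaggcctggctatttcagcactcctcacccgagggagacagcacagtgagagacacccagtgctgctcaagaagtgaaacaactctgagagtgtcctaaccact
Ifi209, chr1:173630709-173630858, + strand: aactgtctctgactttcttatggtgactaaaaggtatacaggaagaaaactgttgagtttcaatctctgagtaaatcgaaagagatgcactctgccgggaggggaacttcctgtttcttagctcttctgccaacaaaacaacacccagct
Aim2, chr1:173420454-173420603, + strand: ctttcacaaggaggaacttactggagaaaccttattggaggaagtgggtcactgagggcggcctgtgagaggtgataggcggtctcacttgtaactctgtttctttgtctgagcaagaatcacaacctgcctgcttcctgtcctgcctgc

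Counted from the base before the start as -1, the ISRE began at -40 in Ifi206, -41 in Ifi207, -37 in Ifi211, -73 in Ifi213 and -134 in Ifi205, which had another match on the opposite strand after the start. Ifi209 held no match; its closest word on the strand of the gene at the corresponding place, beginning at -79, carries the substitution G1T, counted from the first letter of the ISRE. A word with at most 1 difference from these letters occurs in 35.7% of all promoters. Ifi214, whose 300-base window is 95.7% identical to that of Ifi209, held the intact ISRE at that place. Aim2 held none. The gamma-activated site, searched as TTC, any 3 bases and GAA, occurred in no member and in 8.47% of promoters, and the NF-κB letters, GGG, any 5 bases and CC, occurred in Ifi209 among the members and in 50.4% of promoters.

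Some of these windows are close copies of each other and others are not. Those of Ifi206 and Ifi213 were 98.5% identical over 267 aligned bases, those of Ifi205 and Ifi211 93.5% over 201, and those of Ifi207 and Ifi211 88% over 291, while those of Ifi207 and Ifi213 were 62.5% and those of Ifi209 and Ifi211 60.5% identical. A match describes the letters of the window and says nothing of what binds there.

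The libraries held between 4530395 and 15307836 counts in the recurrent model and between 18243891 and 34659337 in the Ercc1 model, so low members are more precisely counted in the Ercc1 model. Ercc1 itself was at 4.67, 5.11 and 6.82 CPM (counts scaled to the library total) in KO-LPS and 9.82, 7.93 and 8.70 in WT-LPS libraries, and at 6.36, 5.14 and 8.19 in KO-PBS and 9.58, 11 and 8.79 in WT-PBS libraries. Every KO library was below every WT library of the same injection, although RNA from the locus remained. The difference passed between the LPS groups (log2 fold change -0.67, adjusted p = 0.0296) and not between the PBS groups (-0.57, adjusted p = 0.0974, edgeR's quasi-likelihood test as throughout). Summed markers of microglia (9 genes, P2ry12 and Tmem119 among them) reached 22020 CPM or more in every library, and the 8 lymphocyte markers summed to at most 3.26 CPM.

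Before any challenge, Aim2 was by far the most abundant member. Scaled by gene length as RPKM (CPM divided by the length in kb), its level was 36.5 ± 6.76 in PP microglia (SD, n = 3), ahead of Ifi204 at 2.83 ± 0.713 and Ifi209 at 2.41 ± 0.140, whose ranges overlapped. Ifi207 (0.993 ± 0.105) and Ifi211 (0.695 ± 0.148) came next, apart from their neighbours. Ifi213, Ifi206 and Ifi205 were lowest, at means of 0.254, 0.131 and 0.112 RPKM, and each overlapped its neighbour. Ifi205, Ifi206 and Ifi213 reached the filter level of 1.35 CPM in all 3 libraries only in the PL and LL groups.

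A single LPS injection raised 7 of the 8 members, all but Aim2, in PL against PP microglia, at an adjusted p under 0.05. Across all 16096 genes tested, 26% passed in this direction and 29.3% had every PL library above every PP library, as the 7 members did. Among the 7, Ifi205, Ifi206 and Ifi213 entered the test through the groups where they were high. Ifi207 changed most, at 86.1, 57.0 and 52.2 CPM in PL, against 3.81, 3.14 and 3.24 CPM in PP. Every PL library stood far above every PP library. Its log2 fold change was 4.27 ± 0.25 (SE), a 19.3-fold difference (adjusted p = 1.03e-08).

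Ifi204, the p204 gene, had 86.5, 73.8 and 58.8 CPM in PL, against 7.73, 9.68 and 12.8 CPM in PP. Every PL library was far above every PP library, and the difference was 7.45-fold (log2 2.90 ± 0.21, adjusted p = 7.07e-08). Ifi211, also known as Mnda, had 20.4, 14.0 and 15.6 CPM in PL, against 1.04, 1.54 and 1.14 CPM in PP, a 12.8-fold difference (adjusted p = 6.24e-07). Ifi205, which encodes p205, had 9.89, 6.07 and 6.44 CPM in PL, against 0.577, 0.449 and 0.381 CPM in PP. That is 15.5-fold (log2 3.95 ± 0.36, adjusted p = 6.69e-07), and the groups lay far apart. The size of this fold rests on few counts in PP.

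The closely related Ifi206 and Ifi213 also rose, likewise from few counts in PP. Ifi206 had 7.77, 5.66 and 5.15 CPM in PL, against 0.115, 0.705 and 0.381 CPM in PP (log2 3.73 ± 0.52, adjusted p = 4.05e-05), and 4.75 without PP replicate 2. Ifi213, also known as Pydc4, had 6.36, 4.99 and 4.58 CPM in PL, against 1.27, 0.705 and 3.24 CPM in PP. The groups did not overlap, but 1 PP library came close to them. The log2 fold change of 1.86 ± 0.54 (adjusted p = 0.0105) was 1.34 without PP replicate 2, where the adjusted p was 0.0698, and 2.52 without PP replicate 3.

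Ifi209, also known as Pyhin1, changed least of the 7. It had 27.5, 21.9 and 18.3 CPM in PL, against 8.65, 8.97 and 8 CPM in PP, a 2.64-fold difference (log2 1.40 ± 0.15, adjusted p = 4.60e-06). Aim2 stood at 90.6, 114 and 106 CPM in PL, against 111, 117 and 155 CPM in PP, and the groups overlapped. Its log2 fold change was -0.30 ± 0.12 (adjusted p = 0.0591), and the adjusted p was 0.039 without PP replicate 1 and 0.041 without PL replicate 2.

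After LPS the order of the members changed. In PL microglia Aim2 still led at 29.6 ± 3.46 RPKM, now followed by Ifi204 at 20.5 ± 3.89 and Ifi207 at 19 ± 5.35, which overlapped each other. Ifi211 stood at 9.34 ± 1.86 and Ifi209 at 6.36 ± 1.31 RPKM. Ifi207 and Ifi211 thus ranked above Ifi209 in PL and below it in PP.

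PL libraries differed from PP libraries in other cells' genes as well. All 4 monocyte markers tested and all 4 neutrophil markers tested passed as higher. The 6 monocyte markers summed to 55.3 to 94.8 CPM in PL and 22.1 to 29.0 CPM in PP, and the 8 neutrophil markers to 1.41 to 256.7 CPM in PL and 0.115 to 44.8 CPM in PP, while 7 of 9 microglia markers fell. The PL library with 1.41 CPM of neutrophil markers, replicate 1, had the highest value of all 7 Ifi members. In bulk RNA, a change in the number of cells of a type and a change in RNA per cell cannot be told apart.

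**Figure D2:**
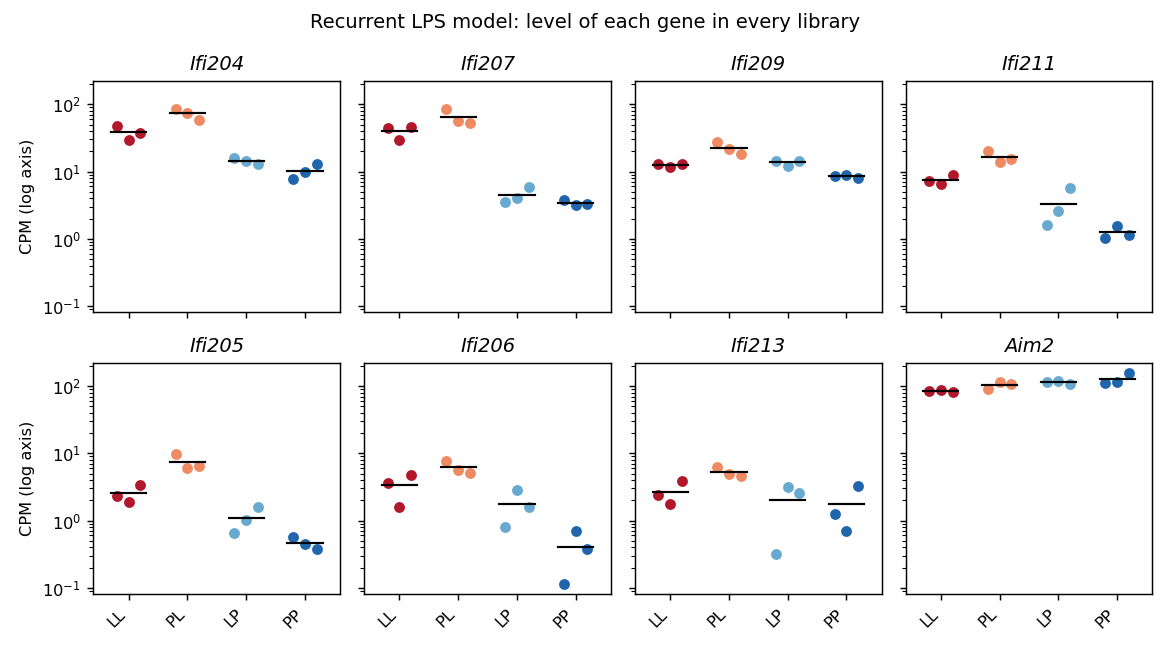
CPM of each member (log axis, the same for all panels) in every library of the recurrent LPS model; points are libraries, 3 per group, and black lines group means. In the panels of the 7 Ifi genes every PL library lies above every PP and every LL library, while the Aim2 points stay between 82.2 and 155 CPM in all groups.

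The LP group asks whether a single LPS injection left a trace in the resting level 4 weeks later. None of the 8 members passed between LP and PP, and none of all genes did (0%); the lowest adjusted p of any gene was 0.4, and 817 genes had an unadjusted p under 0.05. Every other tool and setting run also gave 0 members. The point estimates of the Ifi genes nevertheless lay above 0. Ifi209 had 14.4, 12.3 and 14.4 CPM in LP, against 8.65, 8.97 and 8 CPM in PP (log2 0.65 ± 0.16, unadjusted p = 0.0012, adjusted p = 0.767).

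Ifi204 had 15.9, 14.4 and 13 CPM in LP, against 7.73, 9.68 and 12.8 CPM in PP (log2 0.56, adjusted p = 0.955). Ifi211 had 1.60, 2.57 and 5.60 CPM in LP, against 1.04, 1.54 and 1.14 CPM in PP (log2 1.22, adjusted p = 0.843). For 5 of the 8 members, these and Ifi205 and Ifi206, the LP libraries were all above the PP libraries, as for 4.78% of all genes, and the unadjusted p was under 0.05. After adjustment over all genes these differences are not distinguishable from the spread between libraries. Ifi207, the gene with the largest LPS response, had 3.53, 4.08 and 5.80 CPM in LP, against 3.81, 3.14 and 3.24 CPM in PP, and the groups overlapped.

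The second LPS injection was answered less strongly. In LL against PL microglia, 5 of the 8 members fell (Ifi204, Ifi205, Ifi207, Ifi209 and Ifi211), where 4.73% of all genes passed in this direction, and all 8 had every LL library below every PL library, as did 15.7% of all genes. Ifi205 fell most, with 2.31, 1.91 and 3.39 CPM in LL, against 9.89, 6.07 and 6.44 CPM in PL (log2 -1.61 ± 0.29, adjusted p = 0.00458). The groups did not overlap. Ifi209 had 13.2, 11.7 and 13.1 CPM in LL, against 27.5, 21.9 and 18.3 CPM in PL, again without overlap (log2 -0.85 ± 0.15, adjusted p = 0.00452).

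Ifi204 had 48.1, 29.5 and 37.5 CPM in LL, against 86.5, 73.8 and 58.8 CPM in PL (log2 -0.93 ± 0.19, adjusted p = 0.00821). Ifi211 had 7.18, 6.60 and 8.81 CPM in LL, against 20.4, 14.0 and 15.6 CPM in PL (log2 -1.17 ± 0.27, adjusted p = 0.0182). Ifi207 had 45.2, 29.8 and 45.8 CPM in LL, against 86.1, 57.0 and 52.2 CPM in PL (log2 -0.71 ± 0.20, adjusted p = 0.0416). These 3 genes were lower in every LL library than in any PL library. The call of Ifi204 was lost without LL replicate 2 (adjusted p = 0.0611), that of Ifi211 without PL replicate 1, LL replicate 1 or LL replicate 2 (0.0578, 0.0693 and 0.123), and that of Ifi207 without any of 9 single libraries (0.0523 to 0.21). The number of members that fell was then 3 without PL replicate 1, 3 without LL replicate 1 and 2 without LL replicate 2.

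Against PP microglia, the LL group still stood high. Of the 8 members, 6 rose (17.2% of all genes) and Aim2 fell (18.6% of all genes). Ifi207 was 11.8-fold higher in LL than in PP (log2 3.57 ± 0.26), Ifi206 6.88-fold, Ifi211 5.68-fold, Ifi205 5.05-fold and Ifi204 3.92-fold. Ifi209 was 1.47-fold higher (adjusted p = 0.0173), a call that was lost without LL replicate 1 (0.0621), and Ifi213 was not distinguishable (log2 0.80 ± 0.61, adjusted p = 0.330).

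Aim2 had 85.8, 88.3 and 82.2 CPM in LL, against 111, 117 and 155 CPM in PP. All 3 LL libraries were below all 9 other libraries of the model. The decrease was small, log2 -0.57 ± 0.13 (adjusted p = 0.00296).

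Set against LP, the group with the same first injection, LL microglia had 4 members higher (Ifi204, Ifi205, Ifi207 and Ifi211; 15.4% of all genes) and Aim2 lower (15.9%). Ifi207 again led, with 45.2, 29.8 and 45.8 CPM in LL, against 3.53, 4.08 and 5.80 CPM in LP (log2 3.21 ± 0.25, adjusted p = 4.21e-07). Ifi204 was 2.66-fold higher (adjusted p = 0.000138). Ifi211 (2.44-fold) and Ifi205 (2.34-fold) passed, but not without LP replicate 2 (adjusted p 0.0538 and 0.088), which left 2 members called. The Ifi205 call was also lost without LP replicate 1 or LL replicate 3 (0.0704 and 0.0807). Ifi209 had 13.2, 11.7 and 13.1 CPM in LL, against 14.4, 12.3 and 14.4 CPM in LP, so the second injection moved it no further than the spread between libraries (log2 -0.10, 95% interval -0.47 to 0.27). The Aim2 decrease (log2 -0.42 ± 0.13, adjusted p = 0.0204) was lost without LP replicate 1, LP replicate 2, LL replicate 1 or LL replicate 3 (adjusted p 0.0544 to 0.102).

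The difference between the 2 responses was tested directly, as LL minus LP against PL minus PP. It was negative for 4 members, Ifi204, Ifi205, Ifi209 and Ifi211, where 1.46% of all genes passed as lower. Ifi205 differed by -2.72 ± 0.54 on the log2 scale (adjusted p = 0.0186), Ifi211 by -2.39 ± 0.47 (0.0187), Ifi209 by -1.50 ± 0.22 (0.0031) and Ifi204 by -1.48 ± 0.29 (0.0179). Ifi206 had the largest estimate, -3.00 ± 0.72, and missed the threshold (0.0519). Its log2 fold change was -0.95 in LL against PL and 2.05 in LP against PP, and neither passed. Ifi207, the strongest responder, lost least among the Ifi genes (-1.06 ± 0.37, adjusted p = 0.176), and Aim2 differed by -0.13 ± 0.18. The count of members was 2 without PP replicate 1, PP replicate 2, LP replicate 2, LL replicate 1 or LL replicate 2, with the Ifi209 call present each time. The microglia markers stood at 32350 to 34970 CPM in LL and 22020 to 30320 CPM in PL, the monocyte markers at 42.4 to 45.8 CPM in LL and 55.3 to 94.8 CPM in PL, and the neutrophil markers at 0.487 to 5.65 CPM in LL and 1.41 to 256.7 CPM in PL. Their part in these differences was not tested.

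In the Ercc1 model, the PYHIN genes separated the genotypes without any LPS. In KO-PBS against WT-PBS microglia 7 of the 8 members rose, all but Aim2, where 8.19% of 17460 genes passed in this direction, and all 7 had every KO-PBS library above every WT-PBS library, as did 16.4% of all genes. Ifi204 had 58.9, 51.8 and 70.2 CPM in KO-PBS, against 1.69, 2.36 and 7.29 CPM in WT-PBS. Every KO library was far above every WT library (log2 3.97 ± 0.42, adjusted p = 8.67e-05). Ifi207 had 34.7, 34.0 and 39.8 CPM in KO-PBS, against 0.0352, 0.951 and 6.30 CPM in WT-PBS. The KO libraries agreed closely and the WT libraries did not (log2 3.83 ± 0.74, adjusted p = 0.0055).

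Ifi209 had 31.4, 30.3 and 37.2 CPM in KO-PBS, against 3.66, 5.39 and 6.76 CPM in WT-PBS, the smallest of the 7 differences (6.23-fold, log2 2.64 ± 0.27, adjusted p = 7.36e-05). Ifi211 had 12.4, 10.4 and 13.5 CPM in KO-PBS, against 0.246, 0.141 and 1.34 CPM in WT-PBS (19.7-fold, adjusted p = 0.000343). Both were present in every KO library at several times the highest WT library.

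Ifi205, Ifi206 and Ifi213 were close to absent from WT-PBS microglia. Ifi206 and Ifi213 reached the filter level of 0.343 CPM in all 3 libraries only in the KO groups, and so entered the test through the groups where they were high. Ifi206 had 13.3, 13.1 and 15.5 CPM in KO-PBS, against 0, 0.493 and 0.724 CPM in WT-PBS (log2 5.03 ± 0.64, adjusted p = 0.000385). Ifi213 had 14.4, 12.7 and 17.2 CPM in KO-PBS, against 0, 0 and 0.188 CPM in WT-PBS, where the last value is 7 counts. Its fitted log2 fold change was 7.57 ± 0.60 (adjusted p = 6.84e-06), a size that rests on those 7 counts. Ifi205 had 2.31, 3.27 and 2.84 CPM in KO-PBS, against 0.282, 0.0705 and 0.134 CPM in WT-PBS (log2 4.09 ± 0.51, adjusted p = 0.000297).

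Aim2 again hardly moved. It had 116, 95.9 and 110 CPM in KO-PBS, against 103, 84.2 and 88.3 CPM in WT-PBS, with overlapping groups (log2 0.23 ± 0.13, adjusted p = 0.295).

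Libraries of this model are named as their labels give them, where Control stands for WT. Control_PBS_175 stood apart from the other 2 WT-PBS libraries: 6 of the 8 members were highest in it, with Ifi207 at 235 counts there and at 1 and 27 counts in Control_PBS_170 and Control_PBS_171. Its microglia markers summed to 28510 CPM, against 53450 and 58110 CPM in the others, and its monocyte markers to 5.28 CPM, against 23.6 and 28.4 CPM. Without it the count of 7 members was the same and the log2 fold changes were larger, 4.87 for Ifi204, 5.78 for Ifi206, 6.16 for Ifi207, 5.91 for Ifi211 and 11.7 for Ifi213, the last against 2 libraries at 0 counts and so no measure of size. When the KO-PBS and WT-PBS libraries were fitted alone, Ifi207 did not pass (adjusted p = 0.0646).

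The gap between genotypes was also present after LPS. In KO-LPS against WT-LPS microglia the same 7 members rose, where 13.4% of all genes passed in this direction and 22% had every KO-LPS library above every WT-LPS library. Ifi207 had 157, 166 and 229 CPM in KO-LPS, against 8.21, 10.4 and 7.93 CPM in WT-LPS (20.8-fold, log2 4.38 ± 0.73, adjusted p = 0.000926). Ifi204 had 124, 131 and 175.1 CPM in KO-LPS, against 7.91, 8.37 and 6.55 CPM in WT-LPS (18.8-fold, adjusted p = 2.32e-05). For both genes every KO-LPS library was far above every WT-LPS library.

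Ifi206 had 35.0, 34.6 and 49.9 CPM in KO-LPS, against 0.974, 0.204 and 0.109 CPM in WT-LPS, the largest fold change of this comparison (log2 6.54 ± 0.67, and 7.94 without library Control_LPS_149). Ifi213 had 22.1, 22.7 and 33.6 CPM in KO-LPS, against 0.675, 0.408 and 0.182 CPM in WT-LPS (log2 5.95 ± 0.49). Ifi205, Ifi211 and Ifi209 were 28.6-, 17.7- and 13.5-fold higher. Aim2 had 90.8, 91.5 and 102 CPM in KO-LPS, against 103, 94.0 and 78.0 CPM in WT-LPS, and overlapped (log2 0.05 ± 0.13, adjusted p = 0.820).

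KO-LPS was the only group in which Aim2 did not lead the family per length. Ifi207 stood at 53.8 ± 11.6 RPKM there and Ifi204 at 40.2 ± 7.79, with overlapping ranges, and both lay above Aim2 at 27.1 ± 1.88 RPKM. In WT-PBS microglia Aim2 stood at 26.2 ± 2.81 RPKM and no other member's mean exceeded 1.49 RPKM.

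**Figure D3:**
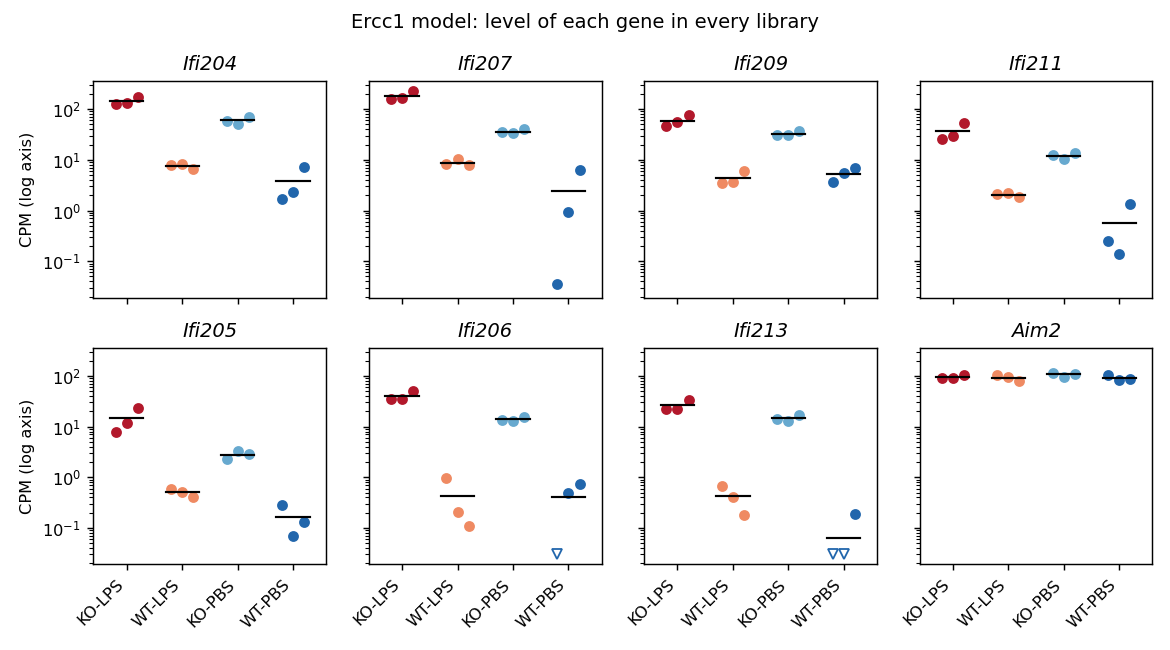
CPM of each member (log axis, the same for all panels) in every library of the Ercc1 model; points are libraries, 3 per group, black lines group means, and open triangles libraries at 0 counts, drawn at the foot of the axis. For the 7 Ifi genes all KO points lie above the WT points of the same injection, and Aim2 stays between 78.0 and 116 CPM.

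Within the KO genotype, LPS raised 6 of the 8 members (17.7% of all genes): Ifi205 by 5.19-fold, Ifi207 by 5.08-fold, Ifi211 by 2.99-fold, Ifi206 by 2.85-fold, Ifi204 by 2.38-fold and Ifi209 by 1.80-fold in KO-LPS over KO-PBS. Ifi205 was the firmest of these (7.99, 11.7 and 23.8 CPM in KO-LPS, against 2.31, 3.27 and 2.84 CPM in KO-PBS, adjusted p = 0.000508). Ifi213 did not overlap and did not pass (log2 0.83 ± 0.37, adjusted p = 0.0958; 0.0118 without library Control_PBS_175). The count was 2 without KO_PBS_638, 1 without KO_PBS_641 and 2 without KO_LPS_600, the library with the highest value of all 7 Ifi genes. Its neutrophil markers summed to 27.35 CPM, against 0.575 and 0.411 CPM in the other KO-LPS libraries, and its microglia markers to 24760 CPM, against 33270 and 31820 CPM; their part was not tested.

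In WT-LPS against WT-PBS microglia only Ifi211 and Ifi213 passed, 2 of 8 members where 10.7% of all genes passed as higher. Ifi211 had 2.10, 2.21 and 1.82 CPM in WT-LPS, against 0.246, 0.141 and 1.34 CPM in WT-PBS (log2 1.73 ± 0.55, adjusted p = 0.0445). Ifi213 rested on 5 to 18 counts per WT-LPS library and overlapped (adjusted p = 0.042). Ifi204 had 7.91, 8.37 and 6.55 CPM in WT-LPS, against 1.69, 2.36 and 7.29 CPM in WT-PBS (log2 0.98 ± 0.40, adjusted p = 0.106), and Ifi209 had 3.52, 3.68 and 6.04 CPM in WT-LPS, against 3.66, 5.39 and 6.76 CPM in WT-PBS (log2 -0.26 ± 0.27).

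This comparison turned on Control_PBS_175. Without it 4 members passed, with log2 fold changes of 1.91 for Ifi204, 4.15 for Ifi207 and 3.37 for Ifi211; without KO_LPS_600 it was 3, without each of the other 10 libraries 0 or 1, and it was 0 when the WT libraries were fitted alone. The PL and PP values above and these come from different strains, ages and read lengths, and the responses of the 2 experiments were not compared by a test.

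The LPS response of KO microglia was not distinguishable from that of WT microglia for any member on the log scale. No member passed the test of KO-LPS minus KO-PBS against WT-LPS minus WT-PBS, where 1.55% of all genes passed as higher; Ifi209 alone had an unadjusted p under 0.05 (log2 1.11 ± 0.37, unadjusted p = 0.011, adjusted p = 0.108) and passed with DESeq2 (adjusted p = 0.0321). The intervals were wide, with 95% limits of -0.97 and 1.51 for Ifi204, -1.65 and 2.74 for Ifi207 and -0.94 and 2.44 for Ifi205. Without library Control_PBS_175, Ifi213 passed as lower (log2 -5.68, adjusted p = 0.0366) against WT-PBS libraries at 0 counts.

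Markers of other macrophages moved with genotype. The 7 markers of border-associated macrophages summed to 19.5 to 34.6 CPM in KO-PBS and 8.04 to 15.8 CPM in WT-PBS, and to 52.2 to 65.9 CPM in KO-LPS and 20.2 to 24.9 CPM in WT-LPS; 2 of the 7 (Mrc1 and Ms4a7) passed in each comparison. The 6 monocyte markers summed to 19.6 to 24.2 CPM in KO-PBS and 5.28 to 28.4 CPM in WT-PBS, with Plac8 alone passing. In KO-LPS against WT-LPS 2 of the 3 monocyte markers tested rose (sums of 29.4 to 37.9 CPM in KO-LPS and 24.5 to 27.6 CPM in WT-LPS), and 4 of the 9 microglia markers fell. The part of these cells in the PYHIN differences was not tested.

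**Figure D4:**
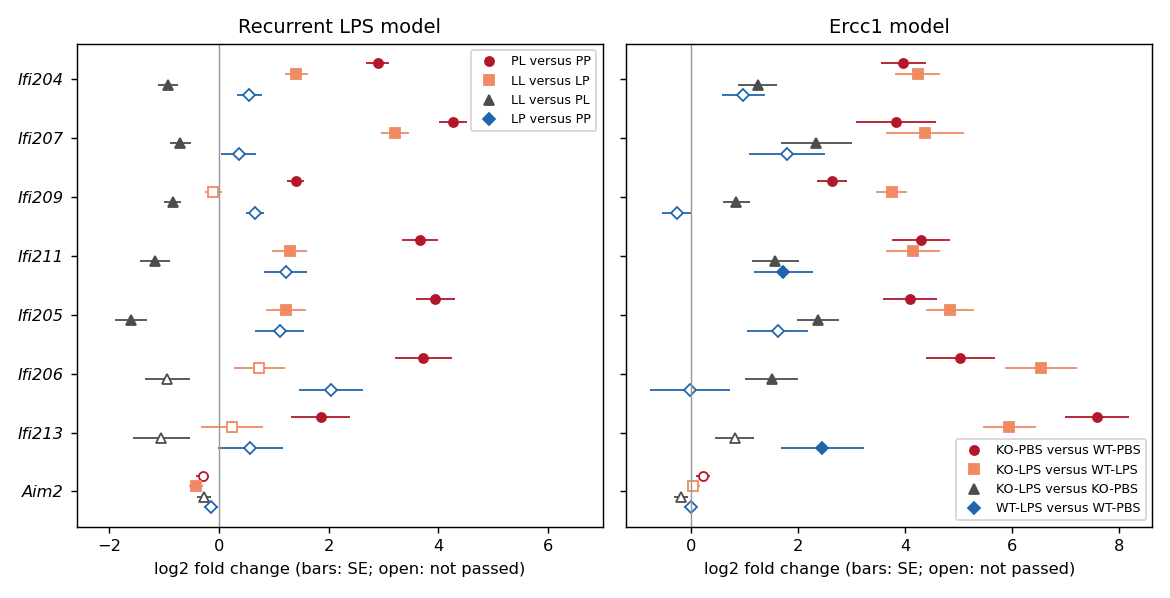
Log2 fold change (x axis) of each member in 4 comparisons of each model, with a standard error back-computed from edgeR's test. Filled symbols passed at an adjusted p under 0.05 and open symbols did not. The 7 Ifi genes lie right of 0 where PL is set against PP and where KO is set against WT after either injection, and left of 0 where LL is set against PL, while Aim2 stays within 0.5 of 0.

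Because reads shared between copies may have been assigned to a wrong relative, the counts of the 12 PYHIN genes other than Aim2 were also summed, which does not depend on how reads were divided among them. Reads that were dropped or assigned outside these genes would still be missing from the sum. The sum was 128.7, 88.7 and 125.3 CPM in LL, 264.9, 200.1 and 176.1 in PL, 42.4, 49.7 and 51.4 in LP, and 26.5, 29.2 and 32.6 CPM in PP. The 4 groups kept apart, and the ratio of means was 7.26 for PL over PP, 0.534 for LL over PL and 1.63 for LP over PP. In the Ercc1 model the sum was 482.8, 536.7 and 758.1 CPM in KO-LPS, 31.6, 30.6 and 26.4 in WT-LPS, 203.7, 194.3 and 237.2 in KO-PBS, and 8.38, 11.4 and 27.1 CPM in WT-PBS. The ratio of means was 13.6 for KO-PBS over WT-PBS and 20.1 for KO-LPS over WT-LPS, and only WT-LPS and WT-PBS overlapped.

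The 5 other PYHIN genes mostly went the same way. In PL against PP, Ifi203, Ifi208, Ifi214 and Mndal all rose (log2 3.09, 3.03, 1.46 and 2.79). In KO-PBS against WT-PBS these 4 and Ifi202b rose, with Mndal at log2 6.03, Ifi208 at 4.93 and Ifi202b at 3.79. Ifi202b had 0 counts in all 12 libraries of C57BL/6J mice and 12 counts or more in all 12 of the mixed FVB/C57BL/6J background, and its exons hold no repeated stretch at either read length. Strain, age and read length differ between the experiments and cannot be told apart there.

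The inflammasome around Aim2 was read from a list of 14 genes, 13 of them tested in each model. In PL against PP, 7 of the 13 rose, where 26% of all genes did, and none fell. Il1b, the cytokine the complex matures, was at log2 7.20 ± 0.33. Gbp5 was at 4.02, Casp4, the receptor of cytosolic LPS, at 3.07 and Gbp2 at 3.04. The adaptor Pycard (log2 -0.18), Casp1 (0.16) and the substrate Il18 (0.09) did not pass. In LL against PL, 7 of the 13 fell (4.73% of all genes), Il1b by 2.42 and Gbp2 by 1.88 on the log2 scale. In KO-PBS against WT-PBS 4 rose (8.19% of all genes), among them Zbp1, a sensor of Z-form nucleic acids, at log2 4.39 and Gbp2 at 1.96.

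Of the genes for cytosolic DNA sensing outside the family, 9 of 15 tested rose and 3 fell in PL against PP, where 26% and 26.6% of all genes did. Ikbke, a kinase that activates IRF3, was at log2 3.58, Irf7 at 2.22, Cgas, the enzyme that makes cGAMP on DNA, at 1.81 and Trex1, a DNA exonuclease, at 1.28, while Samhd1, which degrades dNTPs, was at -1.03. In KO-PBS against WT-PBS 6 of 16 rose (8.19% of all genes) and none fell, with Ifnb1 at log2 6.23 and Irf7 at 3.99. In KO-LPS against WT-LPS 8 of 16 rose (13.4% of all genes).

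The interferon signalling list held 14 genes, all tested. In PL against PP 10 rose and 2 fell (26% and 26.6% of all genes), with Rsad2 at log2 3.59, Stat2 at 2.80 and Isg15 at 2.45. In LL against PL 7 fell (4.73% of all genes) and none rose, with Rsad2 at -2.03 and Usp18 at -1.47. In KO-PBS against WT-PBS 6 rose and 1 fell (8.19% and 3.37% of all genes), with Rsad2 at 4.73, Usp18 at 3.80 and Isg15 at 3.02. In KO-LPS against WT-LPS 12 of the 14 rose (13.4% of all genes). In WT-LPS against WT-PBS 7 rose and 1 fell (10.7% and 9.15% of all genes). In LL against LP 4 rose and 2 fell (15.4% and 15.9% of all genes), with a median of 0.06 beside 1.23 for the 7 Ifi members. The medians of this list were 1.14 in PL against PP and 0.59 in KO-PBS against WT-PBS, beside -0.04 and -0.02 over all genes tested; the medians of the 7 Ifi members were 3.68 and 4.09.

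Across the 12 libraries of a model, which span its 4 groups and differ in depth, the members followed each other except for Aim2. Group means were not removed, so these correlations include the group differences described above. Reads shared between copies may add to them, and their part was not tested. In the recurrent model Ifi211 and Ifi205 were closest (Pearson r = 0.98) and Ifi209 and Ifi213 least alike of the Ifi genes (0.54), whereas Aim2 correlated with them at -0.71 to -0.20. In the Ercc1 model the Ifi genes correlated at 0.83 to 0.99 and Aim2 with them at 0.14 to 0.45. The genes whose log levels were most like the mean profile of the members were Magi1 (0.983), Oasl1 (0.981), Tnpo3 (0.980), Hnrnpl (0.979) and Il1rn (0.977) among 11610 genes in the recurrent model. In the Ercc1 model they were Rsad2 (0.996), Iigp1 (0.992), H2-Q7 (0.990), Cmpk2 (0.989) and Gm8909 (0.989) among 10359 genes, led by interferon-induced Rsad2.

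Chromatin was read as the authors' peak lists, counting a peak within 1000 bp of an annotated start. Aim2 had a peak in every ATAC, H3K4me3, H3K27ac and H3K4me1 list. ATAC peaks mark open chromatin, H3K4me3 active starts and H3K27ac active starts and enhancers. Over all 27025 starts, 37.1% to 44.7% held an ATAC peak, depending on the list.

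In the recurrent model, 5 of the 8 members had an ATAC peak in LL, 6 in PL, 4 in LP and 4 in PP. Ifi206 and Ifi211 had a peak in PL and not in PP, as did 2.29% of all starts. The Ifi211 peak in PL lay at chr1:173912644-173913287 with a Genrich signal of 478.7 (−log10 p of 3.99), and the LL list held a peak of signal 248.5 at the same start. The Ifi206 peak was narrow and weak (91 bases, −log10 p of 2.55). Ifi204, Ifi207 and Ifi209 had peaks in all 4 lists. At Ifi207 the signal was 2707 in LL, 2229 in PL, 646.5 in LP and 700.1 in PP, and at Ifi204 it was 2523, 2369, 1636 and 1505, but signals are not scaled between libraries. At Aim2 it was 2005, 1719, 1703 and 2023.

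H3K4me3 was found at 5 of 8 members in LL, 3 in PL, 4 in LP and 2 in PP, where 51.2% to 51.4% of all starts held a peak. Ifi207 and Ifi209 had a peak in LP and not in PP, as did 0.833% of all starts. Ifi207 had none in PL although its RNA was highest there. H3K27ac was found at 4, 3, 4 and 3 members in LL, PL, LP and PP, where 43.9% to 44.6% of all starts held a peak. Ifi207 had an H3K27ac peak in LL, PL and LP but not in PP, and Ifi209 in LL, LP and PP but not in PL. With 1 pooled library per group, none of these differences has a replicate check.

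In the Ercc1 model H3K4me3 was found at 7 of 8 members in KO-PBS and 2 in WT-PBS, where 48.1% and 48.8% of all starts held a peak. The 5 with a peak in KO-PBS alone were Ifi206, Ifi207, Ifi209, Ifi211 and Ifi213, where 0.54% of all starts had a peak in KO-PBS alone and 1.2% had a peak in WT-PBS alone. The Ifi213 peak (chr1:173598801-173599200, −log10 p of 13) was the weakest of them and the Ifi211 peak (chr1:173911001-173913200, 18.6) the strongest. The H3K4me3 peaks covered 10 kb of the 563.3 kb of Ifi genes in KO-PBS and 0.4 kb in WT-PBS. The list of KO-PBS was the shorter of the pair, with 34435 peaks against 38100 in WT-PBS.

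ATAC peaks stood at 5 members in KO-PBS and at Aim2 alone in WT-PBS. Ifi204, Ifi207, Ifi209 and Ifi211 had a peak in KO-PBS alone, as did 4.03% of all starts; the WT-PBS list was also the shortest, with 36412 peaks against 52325 in KO-PBS. After LPS, 7 members had an ATAC peak in KO-LPS and 4 in WT-LPS. Ifi205, Ifi206 and Ifi211 had a peak in KO-LPS alone, as did 0.977% of all starts, although this list was the shorter (59019 peaks against 65323 in WT-LPS). H3K27ac stood at Ifi204, Ifi207 and Ifi211 in KO-PBS and not in WT-PBS, as at 1.03% of all starts, and at Aim2 in both.

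Alignments of low mapping quality had been removed by the authors, and several windows closely resemble those of relatives. Identity over the aligned bases was 98.5% for Ifi206 and Ifi213, 95.7% for Ifi209 and Ifi214, 93.5% for Ifi205 and Ifi211, and 88% for Ifi207 and Ifi211. The lack of a peak at these starts therefore does not show closed chromatin. Of the 5 other PYHIN genes, the start of Mndal held an H3K4me1 peak in KO-PBS and no other list held a peak at any of them. By the labels, H3K4me1 peaks stood at 4 members in KO-PBS and 6 in WT-PBS, but the genotypes named in these 2 deposited lists and in their labels are exchanged, so no direction is drawn. H3K27me3, a mark of repressed genes, was at no member's start in either genotype, where 40.3% of all starts in KO-PBS and 42.4% in WT-PBS held a peak. Over the 563.3 kb of Ifi genes it had 0 peaks in KO-PBS and 3 in WT-PBS, which covered 4.2 kb. In the annotated span of Aim2, 1 broad region of H3K27me3 covered 46.5 kb in KO-PBS and 46.3 kb in WT-PBS. The Aim2 start used here, chr1:173420604, lies well inside that span. No H3K27me3 peak lay within 1000 bp of it, and the span after it is too short for the region. The region therefore lay before this start, not over the gene body that follows it.

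**Figure D5:**
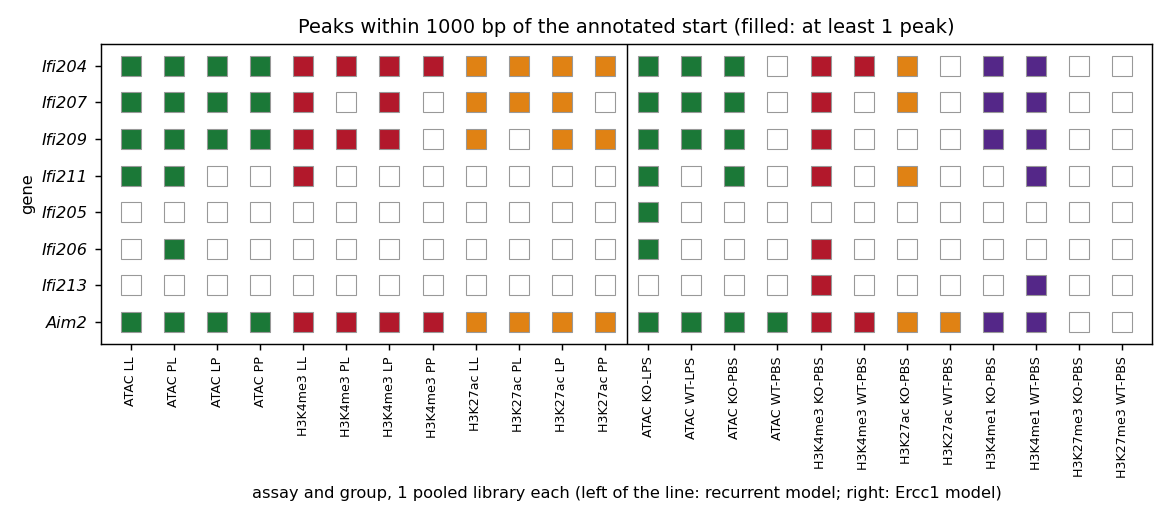
Peaks within 1000 bp of the annotated start of each member (rows) in each of the 24 peak lists (columns, 1 pooled library each); filled squares hold at least 1 peak and colours mark the assay. Aim2 is filled in all lists but H3K27me3, and the column of H3K4me3 in KO-PBS holds 7 filled squares beside 2 in WT-PBS.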

How the data were processed

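RNA was sequenced from microglia in 24 libraries, 3 per group, and ATAC and ChIP libraries were pooled per group. The authors trimmed reads with bbduk (38.69), aligned them with STAR (2.7.3a) to GRCm38 with Ensembl 82 and counted them with featureCounts (2.0.0). The deposited expected counts per gene hold fractions, and the step that made them is not given in the sources used here. They were rounded to whole numbers. The gene lengths deposited by the authors with the counts were used for RPKM. ATAC peaks were deposited by the authors as Genrich (0.5) calls with a signal and a −log10 p, and ChIP peaks as SPAN (0.11.0) calls against input with −log10 p and −log10 q, with thresholds set by hand.

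Counts were tested per model, over all 4 groups (12 libraries), with edgeR's quasi-likelihood test (4.0.16, R 4.3.3), after filterByExpr and TMM scaling. The CPM and RPKM values of genes used TMM-scaled library totals, whereas the filter levels of 1.35 and 0.343 CPM used unscaled totals. A gene passed at a Benjamini-Hochberg adjusted p under 0.05 over all genes tested. The procedure was tested on simulated data. Alternatives were DESeq2 (1.42.0), limma (3.58.1) with quality weights, with and without sva (3.50.0), RLE scaling, no filter, a filter at 1 CPM in 3 libraries, the compared groups alone, a replicate block and leaving out each library. Motifs were searched in RefSeq promoters of GRCm38.p6. Members, gene lists and tests were chosen with earlier results of these data known. The members are the 8 symbols listed, and all are reported. Chromosome sequences of 22 GRCm38 chromosomes were searched for repeated exon stretches.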

Additional observations from a re-analysis of the deposited data

Results flagged for a closer look

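The responses to the second and to the first LPS injection differed, by the test of LL minus LP against PL minus PP, for 7 PYHIN genes. On the log2 scale the difference was -1.48 for Ifi204, -2.72 for Ifi205, -1.50 for Ifi209 and -2.39 for Ifi211 among the 8 members, and -4.10 for Ifi203, -1.73 for Ifi214 and -2.57 for Mndal among the other PYHIN genes. All 7 were negative, so LL minus LP was smaller than PL minus PP, and 1.46% of all genes passed as lower. LP lay above PP in the estimates of these genes, without passing, which adds to each difference. For Ifi211 the log2 fold change was -1.17 in LL against PL and 1.22 in LP against PP. Ifi203 was low, with means of 0.824 CPM in LL, 2.94 in PL, 1.42 in LP and 0.332 in PP.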

How the results depend on the processing

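Of 1693 alternative values for the 8 members in 11 comparisons, 1589 kept their side of the threshold, 75 lost and 29 gained a call. Among values with a call in either setting, 0 reversed direction. Values without a call could change sign and still count as kept. Ifi207 did so in KO minus WT, at log2 0.55 with a lowest alternative of -2.51. The count of members higher in WT-LPS against WT-PBS was 4 with DESeq2, without a filter and with limma and sva, and 0 with the compared groups alone, in place of 2. The count lower in PL against PP was 1 with limma and sva in place of 0, and the count higher in KO minus WT was 1 with DESeq2 in place of 0. Leaving out single libraries gave 0 to 4 members higher in WT-LPS against WT-PBS, 1 to 7 in KO-LPS against KO-PBS and 2 to 4 in LL against LP. It gave 0 to 1 lower in LL against LP, 0 to 1 in PL against PP, 0 to 1 in KO minus WT, 2 to 5 in LL against PL and 2 to 5 in the second minus the first response. With a replicate block in the recurrent model the counts were the same, 7 higher in PL against PP, 6 higher and 1 lower in LL against PP, 4 higher and 1 lower in LL against LP, 5 lower in LL against PL and 4 lower in the second minus the first response. Same-numbered libraries did not deviate together (correlations of -0.41 to 0.41, 7 of 18 over 0.1), so the numbers were not taken as pairs. Members with an ATAC peak were 6 in KO-LPS and 3 in WT-LPS, in place of 7 and 4, at equal numbers of top peaks, and with an H3K4me1 peak 3 in KO-PBS and 4 in WT-PBS, in place of 4 and 6, counting peak centres. DESeq2 gave no adjusted p for Ifi207 in the Ercc1 model. Reads shared between copies limit the values of single Ifi genes, most for Ifi211. Counts under 30 per library limit Ifi205, Ifi206 and Ifi213 in WT and in PP microglia.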
